A study of Bos taurus with 9 samples.

Results

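Gene expression on day 6 of the chemical induction of bovine ear fibroblasts was compared with that on day 3. The comparison took in the 6 induced samples of the 9 in the series, 3 named CiADCs-6d and 3 named CiADCs-3d. CiADCs are chemically induced adipocytes, which here were bovine ear fibroblasts (BEFs) kept in induction medium with 3 compounds. These were RepSox (10 µM), an inhibitor of the TGF-beta type I receptor kinase, VPA (500 µg/mL), which blocks histone deacetylases, and TTNPB (1 µM), a ligand that turns on retinoic acid receptors. Both days carried all 3 compounds, so they differ in the time of exposure. No culture without compounds was sampled on day 3 or day 6, and compound exposure and time in culture cannot be told apart. The other 3 samples were untreated BEFs of day 0, which served here to estimate the spread and to show where a gene started. By the study's methods, BEFs were grown in DMEM with fetal bovine serum, and the induction medium was N2B27 with the compounds. Differences from BEFs therefore also span a change of medium. The study does not say whether the samples of a group came from separate animals or separate inductions, so the p-values measure only the spread between these samples.

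An adipocyte forms when a fibroblast-like precursor leaves the cell cycle and switches on C/EBP and PPARG transcription factors. These then activate the genes for lipid uptake, triglyceride storage and adipokine secretion. During that course the precursor takes down its fibrillar collagen matrix, and a basement membrane is laid around the cell.

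Of the 21512 genes in the table, 14020 had enough counts to be tested. On day 6, 574 genes were higher than on day 3 and 451 were lower, at an adjusted p under 0.05 and a log2 fold change of at least 1 in size, where 1 stands for a doubling or halving. These are 4.09% and 3.22% of the genes tested, or 7.31% together. By adjusted p alone, 14.4% of all genes tested were higher and 13.6% were lower. These shares are the background for every gene group named below where no sample is left out. The median log2 fold change of all genes tested was 0.006, and the median size of the change was 0.3. All 3 day 6 samples lay above all 3 day 3 samples for 19.1% of the genes tested and below them for 18.0%. Totals of the 6 induced libraries ran from 18509244 to 23656351 counts. Levels are given as FPKM, reads scaled to gene length and library depth, in samples 1, 2 and 3 of a day in that order, and fold changes are log2 values from the counts with their standard errors (SE).

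The samples numbered 1 stood apart on both days. On the first principal component of the 6 induced samples, which held 59.5% of the variance, day 3 sample 1 was at -19.5 against -45.7 and -40.6 for the other day 3 samples. Day 6 sample 1 was at 18.4 against 42.3 and 45.1. On this component both thus lay between the remaining samples of the 2 days. On the second component, which held 17.2% of the variance, they were at opposite ends. Day 3 sample 1 was at 31.4 and day 6 sample 1 at -33.4, and the other samples lay from -10.5 to 13.3. Without both samples, 887 genes were higher and 1080 lower. Of the single samples, leaving out day 6 sample 1 gave 832 lower genes, against 293 when day 3 sample 3 was left out and 295 for day 6 sample 3. Counts without both samples numbered 1 are given beside the main gene groups. The background moves when samples are left out. By adjusted p alone, 2019 genes were higher and 1904 lower with all samples, and 3224 and 3690 without both samples numbered 1. There were 1180 and 1097 without day 3 sample 3, and 1006 and 1079 without day 6 sample 3. The leave-out counts of gene groups have to be read beside these numbers. Since both lay nearest to the other day on the first component, leaving them out widens the differences between days. A call gained only by leaving them out is therefore not support for a change. In these bulk samples, fewer cells of one kind and less RNA per cell cannot be told apart.

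Among called genes that reached 10 CPM (counts scaled to library depth) on the day of higher level, the widest fold changes were held by genes that included HSPA6, HES4 and GADD45B on the higher side and COL21A1, ASPN and MKI67 on the lower side. HSPA6 (Gene ID 539835), a stress-inducible Hsp70 chaperone, was at 0.6, 0.65 and 0.55 FPKM on day 3 and at 6.55, 19.6 and 23.5 on day 6. Its 3 day 3 values were almost equal, while day 6 sample 1 was well under the other day 6 samples but still above every day 3 sample (log2 fold change 4.77, SE 0.45, edgeR adjusted p 7.03e-05). HES4 (Gene ID 507480), a repressor of the Hairy/Enhancer of split family, went from 1.01, 0.77 and 0.78 FPKM to 9.06, 10.2 and 9.65 with little spread on either day (3.51, SE 0.32). The histone gene H2BC4 (Gene ID 787269) was at 1.06, 0.69 and 2.65 on day 3 and at 10.6, 11.4 and 12.6 on day 6, and its log2 fold change of 2.93 became 3.71 without day 3 sample 3. It belongs to a family of near-identical genes among which reads can be split, and its own level is uncertain for that reason.

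Among the other genes at the top, GADD45B, a stress sensor gene, was at 12.3, 7.96 and 16.2 FPKM on day 3 and at 70.8, 78.1 and 83.7 on day 6 (2.66, SE 0.22). ALPL, the alkaline phosphatase of bone and other tissues, was at 1.49, 1.02 and 1.38 and then at 11.8, 5.44 and 6.41 (2.58, SE 0.28). PPP1R10, which encodes a nuclear subunit of protein phosphatase 1, had the highest level of this group on day 6, 141, 99.2 and 97.3 against 11.0, 15.6 and 38.9 on day 3. Day 3 sample 3 was the highest of that day, and without it the log2 fold change of 2.34 became 3.06. EVPL, the gene for the junctional protein envoplakin, stayed low at 2.35, 2.02 and 2.24 on day 6 after 0.31, 0.14 and 0.54 (2.69, SE 0.33). No sample of one day entered the range of the other day in any of these genes. The remaining 5 of the 12 highest genes by the naming rule carry only a locus or assembly number.

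On the lower side, COL21A1 (Gene ID 533456), a fibril-associated collagen, was at 2.82, 6.39 and 7.6 FPKM on day 3 and at 1.07, 0.51 and 0.46 on day 6. The samples numbered 1 were the nearest to each other, and without them the log2 fold change of -3.05 (SE 0.38) became -3.92. ASPN, the small leucine-rich proteoglycan asporin, was at 5.56, 7.32 and 9.52 and then at 2.01, 1.93 and 1.67 (-2.02, SE 0.19). NNAT, an imprinted gene for the small membrane protein neuronatin, was at 55.4, 46.7 and 52.1 and then at 14.6, 10.8 and 14.8 (-1.96, SE 0.14). NNAT had also been near 20 FPKM in BEFs, at 20.8, 18.7 and 20.6, so its day 6 level was under that of the fibroblasts. FAP, the fibroblast activation protein, had 5.52, 4.75 and 8.61 and then 2.31, 1.73 and 1.92 (-1.7, SE 0.21).

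Several genes that were near 0 in BEFs and present on day 3 were lower again on day 6. CXCL13, a B-cell chemokine listed at 0 in all 3 BEFs samples, was at 12.7, 21.2 and 14.3 on day 3 and at 6.12, 3.84 and 3.26 on day 6 (-1.88, SE 0.27). ART4, an ADP-ribosyltransferase family gene that carries a blood group, was at 9.89, 18.1 and 19.6 and then at 5.67, 4.54 and 5.07 (-1.66, SE 0.25). LRRC4, a leucine-rich repeat adhesion gene, was at 2.05, 3.68 and 4.41 and then at 1.59, 0.64 and 0.82, and its log2 fold change of -1.81 became -2.46 without day 6 sample 1. In each of these genes the samples numbered 1 held the lowest value of day 3 and the highest of day 6. Also lower were SAMHD1, a dNTP-degrading enzyme (-1.84, SE 0.21), EID1, an inhibitor of EP300-dependent differentiation (-1.69, SE 0.25, and -2.33 without both samples numbered 1), and the smooth muscle actin ACTG2 (-1.67, SE 0.3, and -2.36 without them).

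**Figure D1:**
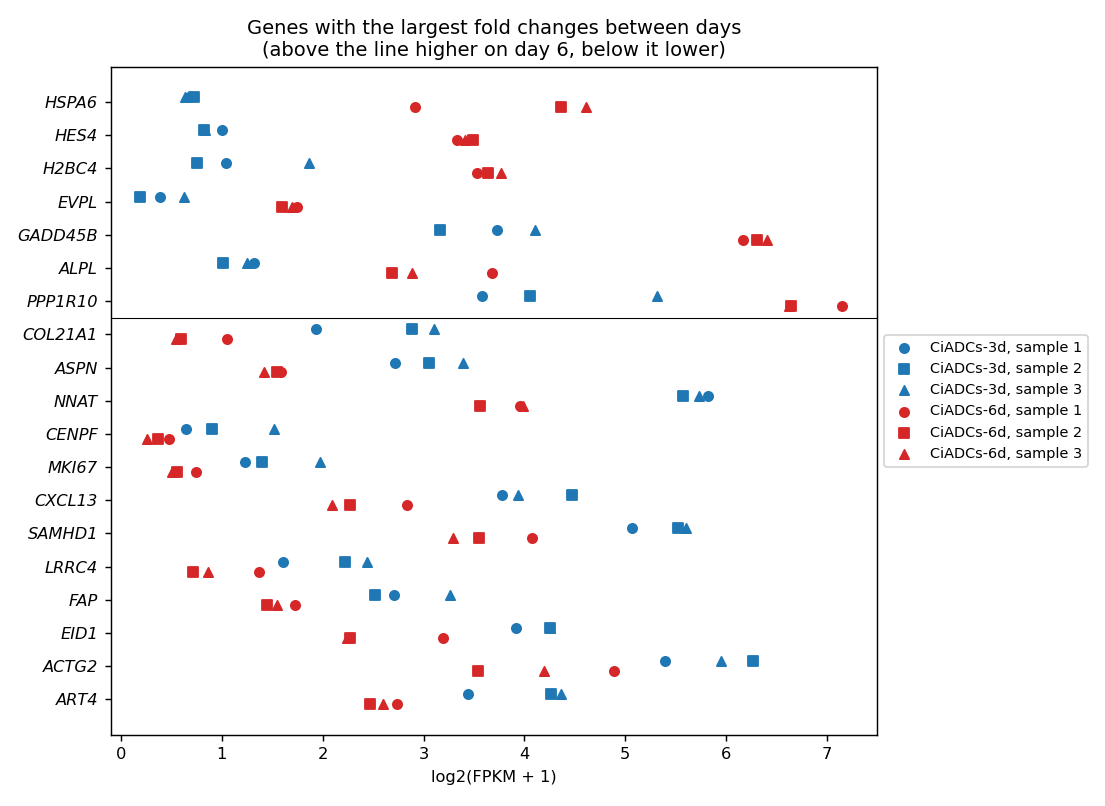
Level of the named genes with the largest fold changes between days, on the log2(FPKM + 1) scale, 1 point per sample; blue is CiADCs-3d and red CiADCs-6d, with circles, squares and triangles for samples 1, 2 and 3. In every gene shown the 3 red points lie on one side of the 3 blue ones, and in COL21A1, LRRC4, EID1 and ACTG2 the circles of the days lie nearest to each other.

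By level rather than by fold, the largest gains among the genes called at 2-fold or more were in 4 secreted proteins and 1 cell cycle inhibitor. TIMP1 (Gene ID 282092), the inhibitor of matrix metalloproteinases, was at 905, 980 and 913 FPKM on day 3 and at 2665, 2354 and 2735 on day 6 (1.45, SE 0.1, adjusted p 1.97e-05). CLU, the extracellular chaperone clusterin, was at 1376, 1180 and 1166 and then at 3216, 2581 and 2788 (1.19, SE 0.11). M-SAA3.2, a serum amyloid A gene, was at 1050, 800 and 1109 and then at 3015, 1898 and 1848 (1.17, SE 0.19). CCN1, a matricellular protein, and CDKN1A, the cyclin-dependent kinase inhibitor p21, completed the group of 5 with 1.11 (SE 0.14) and 1.55 (SE 0.14). In all 5 genes the ranges of the days did not overlap. The serum amyloid genes are close paralogs, and the split of reads between them is uncertain.

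The largest losses by level among the genes called at 2-fold or more were in IGFBP3, MGP, the mitochondrial gene CYTB, IGFBP5 and COL1A1. IGFBP3, which binds insulin-like growth factors, was at 2175, 2545 and 2780 FPKM on day 3 and at 1489, 984 and 968 on day 6 (-1.14, SE 0.17). IGFBP5 was at 949, 1434 and 1409 and then at 653, 416 and 458 (-1.5, SE 0.21). MGP, the matrix Gla protein that restrains calcification, was at 1414, 1740 and 2282 and then at 973, 530 and 489 (-1.47, SE 0.25, and -2.06 without both samples numbered 1). In these 3 genes the ranges did not overlap, and sample 1 was the lowest of day 3 and the highest of day 6.

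Mitosis genes were lower on day 6, from a level that was already low on day 3. Of 30 G2/M genes tested, 23 were lower and 2 were higher, against 13.6% and 14.4% of all genes tested, with a median log2 fold change of -1.44. Without both samples numbered 1 the counts were 24 and 3, and without any single induced sample the lower genes numbered 18 to 24. MKI67 (Gene ID 513220), the proliferation marker Ki-67, was at 51.4, 54.5 and 48.9 FPKM in BEFs, at 1.35, 1.64 and 2.94 on day 3 and at 0.68, 0.47 and 0.42 on day 6 (-1.94, SE 0.27, adjusted p 0.000542). AURKB, the Aurora B mitotic kinase, was at 1.48, 1.59 and 2.72 on day 3 and at 0.44, 0.47 and 0.56 on day 6 (-2.02, SE 0.26). BUB1B, a spindle checkpoint kinase, was at 1.23, 1.91 and 3.27 and then at 0.68, 0.38 and 0.33 (-2.23, SE 0.35, and -2.94 without both samples numbered 1).

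Day 3 sample 3 was the highest of its day in these mitosis genes. Without it the log2 fold change of CDC20, an activator of the anaphase-promoting complex, went from -2.94 to -2.33, and that of the kinetochore gene CENPF from -1.95 to -1.33. Those of CCNB1, the cyclin of mitotic entry, and of the kinesin KIF20A, picked after their values were seen, went from -2.11 to -1.47 and from -2.7 to -1.93. The 2 members that were higher were NUSAP1 (0.82, SE 0.26) and HMMR (0.61, SE 0.2), both microtubule-associated genes. Their calls were lost without day 3 sample 1, day 3 sample 2, day 6 sample 2 or day 6 sample 3, and that of HMMR also without day 3 sample 3.

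DNA replication genes were split. Of 30 S-phase genes, 12 were lower and 4 were higher (median -0.42), and without both samples numbered 1 the counts were 19 and 3. The number of lower genes was 7 without day 3 sample 3 and also without day 6 sample 3. CDT1, a licensing factor, was at 0.33, 0.36 and 0.58 FPKM on day 3 and at 0.09, 0.09 and 0.03 on day 6 (-2.61, SE 0.4). UHRF1, which maintains DNA methylation, and POLE, the catalytic subunit of DNA polymerase epsilon, fell by 1.28 (SE 0.2) and 1.68 (SE 0.29) on the log2 scale. CCNE2, a cyclin of the G1/S transition, went the other way, from 0.31, 0.09 and 0.45 to 2.35, 2.51 and 1.6 (2.89, SE 0.37), close to its BEFs values of 3.35, 4.41 and 3.02. All of these genes except CCNE2 were far under their BEFs level on both days.

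The p53 target genes had the largest share of higher members of any list. Of 21 tested, 15 were higher and 0 were lower, with a median log2 fold change of 0.94, against 14.4% and 13.6% of all genes tested by edgeR. At an unadjusted p under 0.05, 5725 of all 14020 genes passed in either direction. The higher count was 17 without both samples numbered 1 and between 13 and 17 without any single induced sample. BBC3 (Gene ID 782359), the apoptosis effector PUMA, was at 15.03, 11.5 and 12.4 FPKM on day 3 and at 42.5, 40.5 and 40.7 on day 6 (1.64, SE 0.11, adjusted p 1.96e-05). CDKN1A was at 213, 139 and 154 and then at 484, 522 and 492, and PHLDA3, a p53-induced inhibitor of Akt, was at 135, 129 and 132 and then at 272, 242 and 252 (0.94, SE 0.09). For both, the days were separated by far more than the spread within a day.

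Negative regulators of p53, picked after their values were seen, moved the same way. MDM2, the ubiquitin ligase of p53, was at 48.4, 32.5 and 32.9 FPKM on day 3 and at 87.0, 83.8 and 63.0 on day 6 (1.06, SE 0.15), and PPM1D, a phosphatase that dampens p53, was at 8.55, 5.07 and 5.37 and then at 17.04, 21.2 and 18.01 (1.56, SE 0.17). Day 3 sample 1 was the highest of its day in BBC3, CDKN1A, MDM2 and PPM1D. Of 16 cyclins of G1 and inhibitors of cyclin-dependent kinases, 3 were higher and 2 lower: CDKN1A, CDKN2D (1.53, SE 0.32, and 2.19 without both samples numbered 1) and the D-type cyclin CCND2 (0.6, SE 0.13) were higher, and the inhibitor CDKN2C (-0.65, SE 0.15) and the kinase CDK4 were lower. By the pathway annotation of the table itself, the p53 signaling pathway had the highest share of higher genes among 300 pathways with 15 to 300 genes tested. It had 27 of 75 higher (36.0%), beside 13 lower. Without any single induced sample its higher count was 18 to 32. The list and the pathway share members and are not separate counts.

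**Figure D2:**
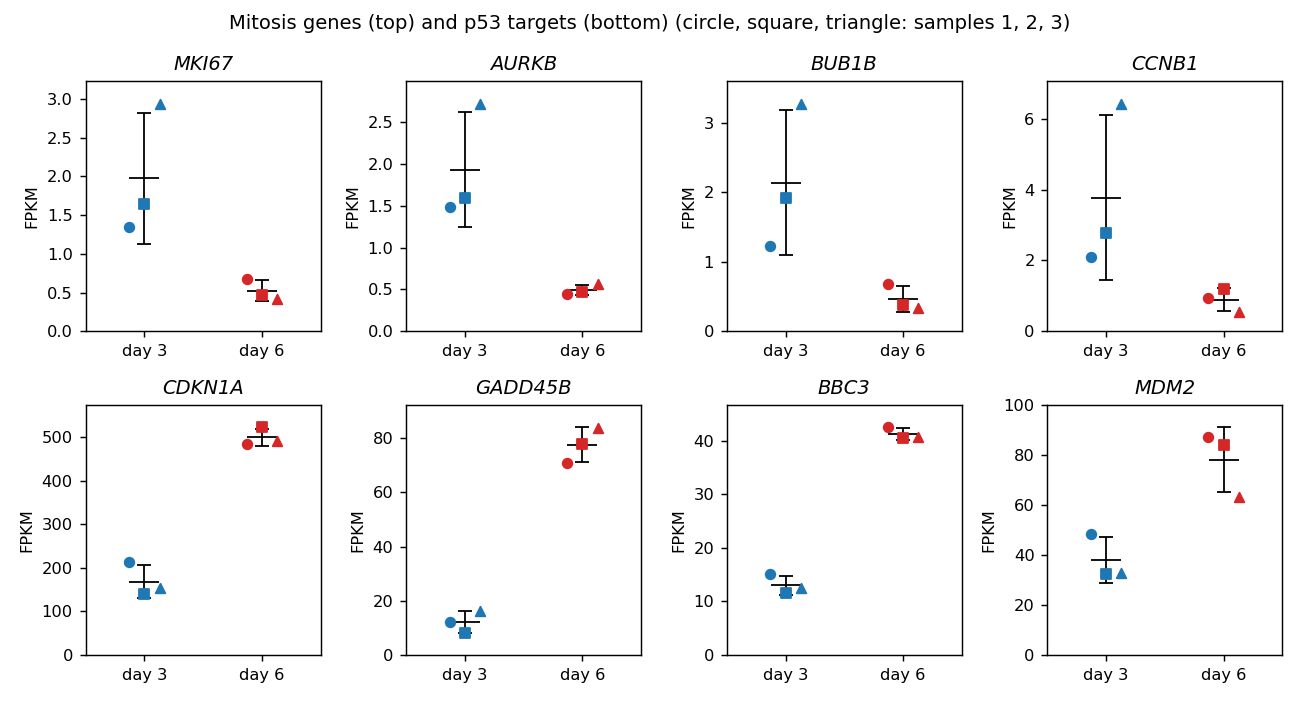
FPKM of 4 mitosis genes (top) and 4 p53 targets (bottom) on day 3 and day 6, 1 point per sample, with bars for the mean ± SD of 3 samples; circles, squares and triangles are samples 1, 2 and 3. In each of the 8 genes the days do not overlap, and day 3 sample 3 is the highest of the mitosis genes on day 3.

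The amino acid and stress response driven by ATF4 had 11 of 24 members higher and 0 lower (median 0.57). Its count moved with single libraries: it was 4 without day 3 sample 3 or without day 6 sample 3, 5 without day 3 sample 2, 6 without day 6 sample 1 or any of the BEFs samples, and 7 without day 6 sample 2. Without day 3 sample 1 it was 21, and without both samples numbered 1 it was 21 with 2 lower. The summed level of its members was 2350 FPKM in day 3 sample 1 against 1340 and 1480 in the other day 3 samples, and 2570, 2350 and 2410 on day 6. Members that held in every leave-out were DDIT3, the stress factor CHOP, at 40.6, 19.9 and 32.0 and then 68.8, 77.9 and 71.8 (1.23, SE 0.19), ATF3 (1.6, SE 0.28), ATF5 (0.96, SE 0.14) and SESN2 (0.96, SE 0.15).

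Secreted factors changed in both directions. Of 28 growth factors and their binding proteins, 12 were higher and 4 lower (median 0.35), or 16 and 7 without both samples numbered 1. The higher count was 6 or 7 when any of day 3 samples 2 and 3 or day 6 samples 2 and 3 was left out. GDF15 (Gene ID 618677), a stress-induced member of the TGF-beta family, was at 128, 52.0 and 59.1 FPKM on day 3 and at 301, 393 and 441 on day 6 (2.24, SE 0.28, and 2.84 without both samples numbered 1). It had been near 10 in BEFs. IGFBP7 was at 30.5, 34.2 and 30.4 and then at 68.3, 55.3 and 58.1 (0.92, SE 0.11), opposite in direction to IGFBP3 and IGFBP5.

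Among 22 immediate early genes, which respond to growth signals, 10 were higher and 1 lower (median 0.46), with 6 higher without day 3 sample 2, day 3 sample 3 or day 6 sample 3. They included JUND (0.88, SE 0.11), FOSL1 (1.4, SE 0.21) and MYC (0.91, SE 0.18). Of 23 chemokines and interleukins, 8 were higher and 3 lower, and the higher count was 4 without day 3 sample 2 or 3 and 5 without day 6 sample 3. Without day 6 sample 1 the lower genes numbered 6, with 5 without day 3 sample 2, and 6 beside 10 higher without both samples numbered 1. CSF1, the growth factor of macrophages, was at 32.7, 34.2 and 31.4 FPKM and then at 73.7, 59.5 and 59.0 (0.95, SE 0.12). CXCL8, a neutrophil chemokine, was at 93.5, 59.2 and 62.2 and then at 129, 153 and 113 (0.86, SE 0.18), while IL33, an alarmin, stayed at 1.14 FPKM or less in every sample and was lower on day 6 (-2.6, SE 0.46). Of 24 interferon response genes, 0 were higher and 6 lower. The lower count was 3 without day 3 sample 2, day 6 sample 2 or day 6 sample 3, 10 without day 3 sample 1, and 14 without both samples numbered 1.

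**Figure D3:**
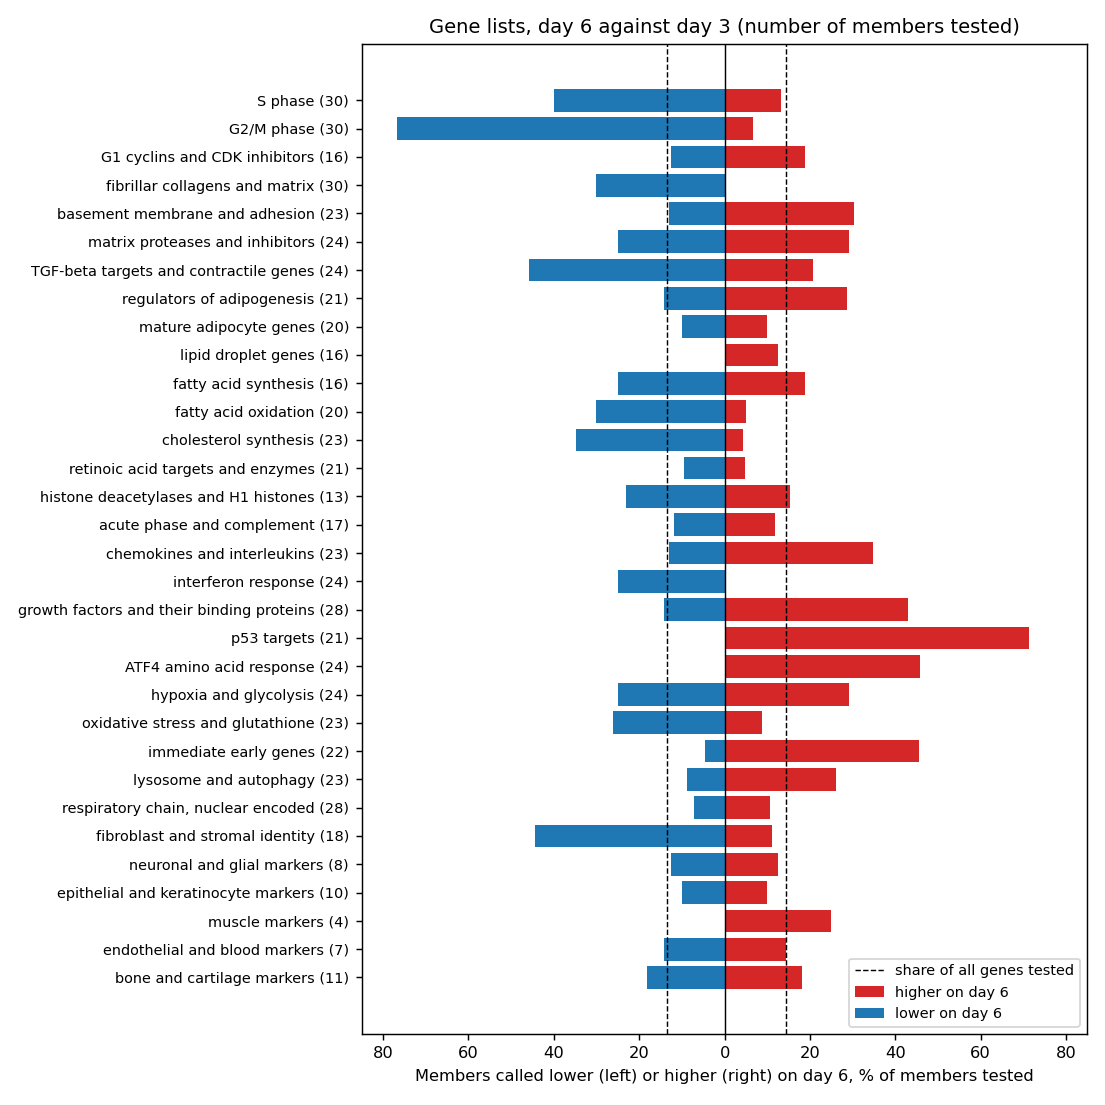
Share of the tested members of each gene list that was called higher (red, right) or lower (blue, left) on day 6 than on day 3 by edgeR at an adjusted p under 0.05; the number of members tested stands after each name, and the dashed lines are the shares over all genes tested, 14.4% and 13.6%. The G2/M list reaches furthest to the left and the p53 target list furthest to the right.

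Fibrillar collagen genes were in part lower on day 6. Of 30 fibrillar collagen and matrix genes, 9 were lower and 0 were higher (median -0.27). The lower count was 14 without day 6 sample 1, with 2 higher, and without both samples numbered 1 it was 18, beside 4 that were higher. COL1A1 (Gene ID 282187) was at 924, 1378 and 1524 FPKM on day 3 and at 606, 539 and 602 on day 6 (-1.16, SE 0.17), and COL1A2, the partner chain of type I collagen, was at 851, 1321 and 1392 and then at 675, 471 and 510 (-1.13, SE 0.19). In BEFs the values of COL1A1 had been 4690, 4601 and 4295. FBLN5, an elastic fibre protein, was at 18.3, 22.0 and 26.1 and then at 8.73, 7.36 and 8.69 (-1.45, SE 0.14). COL3A1, the type III collagen chain, did not pass the test, with 1770, 2526 and 2554 and then 2092, 1497 and 1521 (-0.44, edgeR adjusted p 0.0664). It passed without both samples numbered 1 (-0.83), but leaving them out widens the differences between days.

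Of 23 basement membrane and adhesion genes, 7 were higher and 3 lower (median 0.18), or 12 and 4 without both samples numbered 1. The higher count was 4 without day 3 sample 3 or day 6 sample 3. All 7 encode components of the basement membrane, of which 5 are laminin chains. LAMC1, the gamma 1 chain, was at 195, 191 and 172 FPKM and then at 287, 301 and 304 (0.66, SE 0.09), and LAMA5 was at 80.8, 67.0 and 66.5 and then at 102, 107 and 129 (0.64, SE 0.12). The lower members were COL15A1 (-0.75, SE 0.09) and the integrins ITGA5 (-0.6, SE 0.09) and ITGA7.

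Of 24 matrix proteases and inhibitors, 7 were higher and 6 lower. MMP1, interstitial collagenase, was at 8.42, 3.44 and 3.35 FPKM on day 3 and at 24.0, 26.3 and 23.8 on day 6 (2.29, SE 0.28), so that it and its inhibitor TIMP1 were both higher. ADAMTS5, an aggrecanase, was at 79.2, 68.1 and 71.0 and then at 128, 140 and 156 (0.94, SE 0.1). MMP16, a membrane-bound protease, was lower (-0.74, SE 0.11). In the ECM-receptor interaction pathway, 10 of 71 genes were higher (5 to 17 without any single induced sample) and 16 lower, and in focal adhesion 15 of 177 were higher (7 to 26) and 37 lower (26 to 47).

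**Figure D4:**
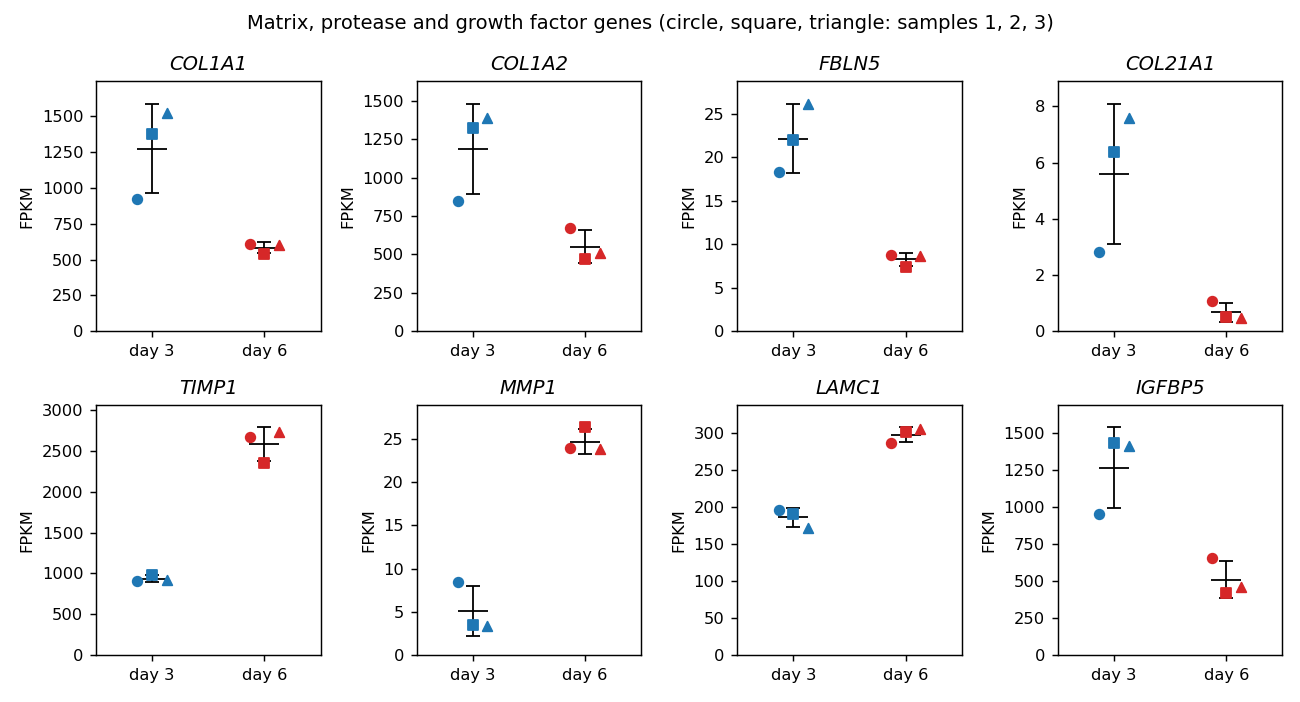
FPKM of matrix, protease and growth factor genes on day 3 and day 6, 1 point per sample, with bars for the mean ± SD of 3 samples; circles, squares and triangles are samples 1, 2 and 3. COL1A1, COL1A2, FBLN5, COL21A1 and IGFBP5 are lower and TIMP1, MMP1 and LAMC1 higher on day 6, with no overlap between days.

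Genes that mark fibroblasts were often lower on day 6. Of 18 fibroblast and stromal genes tested, 8 were lower and 2 higher (median -0.64), or 10 and 3 without both samples numbered 1. The lower count was 8 to 10 without any single induced sample, while the higher genes, CD44 and NT5E, were not called without day 3 sample 2, day 3 sample 3 or day 6 sample 3. PRRX1, a mesenchymal transcription factor, was at 116, 183 and 163 FPKM on day 3 and at 85.9, 67.1 and 73.7 on day 6 (-1.31, SE 0.15). THY1, a surface glycoprotein of fibroblasts, was at 503, 512 and 580 and then at 292, 241 and 254 (-1.04, SE 0.11), after 535, 517 and 535 in BEFs, so its loss lay between the 2 induced days. PDGFRA, a receptor of stromal precursors, was at 173, 220 and 210 and then at 146, 114 and 110 (-0.72, SE 0.13). VIM was lower as well (-0.82, SE 0.11), and DPP4, at 0.55 FPKM or less in every sample, had the largest fold change of the list. Among further defining fibroblast markers, LUM was at 219, 138 and 196 and then at 122, 169 and 154. It did not pass (-0.32, SE 0.16, edgeR adjusted p 0.157). DCN was at 413, 476 and 473 and then at 399, 358 and 308 (-0.38, SE 0.12), and its call was lost without sample 2 or 3 of either day.

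Gene lists chosen for their link to the compounds' targets were mixed. The lists are broad, and which members a compound acts on was not tested. Of 24 TGF-beta targets and contractile genes, 11 were lower and 5 higher (median -0.41), or 14 and 7 without both samples numbered 1. The lower count was 7 without any of day 3 sample 2, day 3 sample 3 and day 6 sample 3. The higher members were ID2, CCN1, CCN2, SMAD7 and TGFB1, and the lower ones included the actins and TGFBI (-1.13, SE 0.15). CCN2, a matricellular target of TGF-beta, was at 158, 111 and 123 FPKM and then at 336, 248 and 270 (1.11, SE 0.14), which is still under its BEFs level of 734, 752 and 813. ID2, an inhibitor of basic helix-loop-helix factors, was at 29.8, 21.4 and 23.1 and then at 76.6, 54.7 and 58.4 (1.33, SE 0.17).

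In the table's TGF-beta signaling pathway, 18 of 68 genes were higher and 5 lower, with 10 higher without day 6 sample 2 or 3 and 11 or 12 without day 3 sample 3 or 2. Only 1 gene was lower without day 3 sample 3 or day 6 sample 3 and 2 without day 3 sample 2. The higher genes include ligands as well as secreted and membrane antagonists of the family. TGFB3, a ligand, was at 3.49, 3.75 and 3.66 FPKM and then at 8.42, 12.5 and 12.2 (1.6, SE 0.15), and INHBA, the activin A subunit, was at 46.3, 20.96 and 25.4 and then at 71.7, 70.7 and 80.3 (1.26, SE 0.22). The activin antagonist FST was at 41.7, 26.2 and 22.5 and then at 57.6, 78.1 and 75.4 (1.24, SE 0.19), and the inhibitory SMAD7 was at 3.38, 1.61 and 2.04 and then at 5.77, 4.39 and 4.35 (1.04, SE 0.22). BAMBI, a pseudoreceptor, stayed at 3.05 or less (1.15, SE 0.22). None of these days overlapped, and the genes in this paragraph except SMAD7 were picked by adjusted p after their values were seen.

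Of 21 retinoic acid targets and enzymes tested, 1 was higher and 2 lower. CRABP2, the cellular binding protein of retinoic acid, was at 48.5, 72.8 and 73.8 FPKM and then at 20.7, 19.6 and 24.1 (-1.62, SE 0.2), back to its level in BEFs of 19.6, 18.6 and 27.1. ALDH1A3 was the other lower gene, at 0.54 FPKM or less on both days, and its call was lost when any induced sample was left out. Of 13 histone deacetylases and linker histones, 2 were higher and 3 lower: SIRT1 (1.27, SE 0.17) and HDAC11 were higher, and HDAC1 and HDAC8 were among the lower ones, with 5 lower without day 3 sample 1, day 6 sample 1 or day 6 sample 2 and 1 higher without day 3 sample 2, day 3 sample 3, day 6 sample 1 or day 6 sample 3. HDAC1, a class I deacetylase, was at 32.9, 44.6 and 51.4 and then at 30.9, 15.6 and 16.1 (-1.06, SE 0.24, and -1.67 without both samples numbered 1).

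Several defining markers of mature fat cells were low on both days. ADIPOQ, the adipokine adiponectin, was at 1.71, 1.95 and 1.96 FPKM on day 3 and at 1.7, 1.42 and 1.53 on day 6, and did not pass the test (-0.29, SE 0.3, adjusted p 0.49). PLIN1, the lipid droplet coat of adipocytes, was at 1.47, 0.88 and 1.06 and then at 1.06, 1.24 and 1.05, next to 1.45, 1.31 and 1.55 in BEFs (-0.04, SE 0.22, and 0.16 without both samples numbered 1). CIDEC did not exceed 0.24 and LEP, the gene for leptin, did not exceed 0.22 in any induced sample, and LEP had too few counts to be tested. LIPE, hormone-sensitive lipase, was between 1.36 and 2.17 in the induced samples and did not pass (-0.26, SE 0.2). Other genes of the mature adipocyte list were more abundant, and the list summed to 203 to 249 FPKM on day 3 and 205 to 242 on day 6, near the 201 to 208 of BEFs.

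FABP4 (Gene ID 281759), the fatty acid carrier of fat cells, was at 17.2, 16.4 and 18.2 FPKM in BEFs, at 13.2, 3.31 and 9.2 on day 3 and at 2.25, 0.83 and 1.12 on day 6 (-2.61, SE 0.46, adjusted p 0.00223). PPARG (Gene ID 281993), the main regulator of fat cell formation, was at 2.23, 1.86 and 2.41 in BEFs, at 9.17, 5.4 and 6.71 on day 3 and at 2.87, 3.27 and 4.23 on day 6 (-1.05, SE 0.22, adjusted p 0.00497). LPL, lipoprotein lipase, was at 3.96, 4.32 and 5.53 on day 3 and at 2.53, 1.94 and 1.93 on day 6 (-1.13, SE 0.17). All 3 genes were thus lower on day 6 with no overlap between days, and held without any single induced sample. PPARG and LPL were still above every BEFs sample.

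Other regulators moved in both directions. CEBPA (Gene ID 281677), the partner of PPARG, was at 0.39, 0.43 and 0.34 FPKM on day 3 and at 1.79, 2.1 and 2.05 on day 6 (2.32, SE 0.35). Of 21 regulators of adipogenesis tested, 6 were higher and 3 lower (median 0.07, against 0.006 over all genes tested), with 4 to 6 higher without any single sample. KLF4 was at 231, 163 and 176 and then at 326, 314 and 319 (0.74, SE 0.15), and KLF2, described as a repressor of PPARG, was at 5.4, 7.11 and 7.84 and then at 15.3, 14.0 and 16.3 (1.14, SE 0.18). EBF1, an early B-cell factor that promotes fat cell formation, was at 12.7, 12.1 and 13.03 and then at 7.74, 7.02 and 5.81 (-0.88, SE 0.12). CEBPD, an early C/EBP factor, was lower as well (-0.38, SE 0.11), but not without sample 2 or 3 of either day.

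Of 20 mature adipocyte genes tested, 2 were higher and 2 lower (median -0.09), and without both samples numbered 1 the counts were 5 and 5. The lower count was 6 without day 6 sample 1 and 4 without day 3 sample 2 or BEFs sample 3. The lower genes were FABP4 and LPL and the higher ones DGAT1 (0.38, SE 0.11) and CFD. CFD, the adipokine adipsin, was at 6.2, 8.37 and 10.9 FPKM and then at 18.8, 10.2 and 14.6 (0.75, SE 0.25), with overlapping days. Its call was lost without day 3 sample 1, day 3 sample 2, day 6 sample 1 or day 6 sample 3, and that of DGAT1 without day 3 sample 2, day 3 sample 3, day 6 sample 1 or day 6 sample 3. CD36, a fatty acid translocase, was at 2.29, 0.87 and 0.59 and then at 1.65, 4.15 and 2.47 and did not pass (1.17, SE 0.47, adjusted p 0.081). It passed without both samples numbered 1, at 2.18, but leaving them out widens the differences between days.

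In the table's GO process of fat cell differentiation, 24 of 78 genes were higher and 8 lower (median 0.23). The higher count was 14 without day 3 sample 2, day 3 sample 3 or day 6 sample 3. Its lower genes numbered 4 without day 3 sample 3 and 5 without day 6 sample 3. The process also holds regulators that restrain or only accompany fat cell formation. Its higher genes with the lowest adjusted p included the Notch ligand JAG1, ID2 and SIRT1 beside CEBPA, and its lower genes included FABP4 and PPARG. In the PPAR signaling pathway, 9 of 58 genes were higher (15.5%) and 11 lower (19.0%), against 14.4% and 13.6% of all genes tested (median -0.22). There were 21 lower without day 6 sample 1, 17 lower without day 3 sample 1 and 14 higher without day 3 sample 1. In the PI3K-Akt pathway 42 of 269 were higher (15.6%) and 43 lower (16.0%), which is near the shares of all genes tested. There were 26 higher without day 6 sample 3 and 26 lower without day 3 sample 3.

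**Figure D5:**
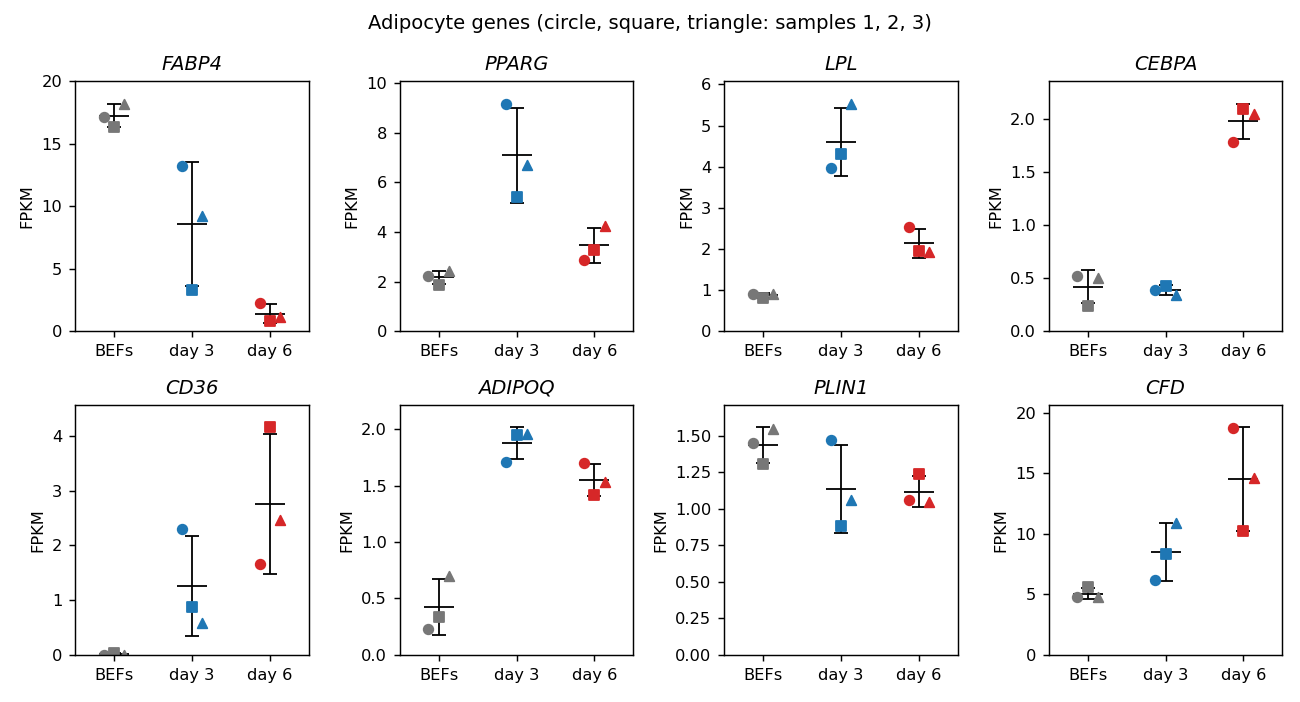
FPKM of 8 adipocyte genes in BEFs (grey), on day 3 (blue) and on day 6 (red), 1 point per sample, with bars for the mean ± SD of 3 samples; circles, squares and triangles are samples 1, 2 and 3. FABP4, PPARG and LPL are lower and CEBPA higher on day 6 than on day 3 with no overlap, ADIPOQ and PLIN1 stay under 2, and for CD36, PLIN1 and CFD the days overlap.

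Of 16 lipid droplet genes tested, 2 were higher and 0 lower by edgeR, or 5 and 2 without day 6 sample 1. FITM2, which promotes fat storage in the endoplasmic reticulum, was at 23.5, 22.6 and 22.4 FPKM and then at 28.9, 35.4 and 34.2 (0.51, SE 0.1). The call of PLIN3 (0.29, SE 0.1) was lost with DESeq2 and without day 3 samples 1, 2 or 3 or day 6 samples 1 or 3. PLIN2, the droplet coat of many cell types, was at 186, 127 and 160 and then at 178, 218 and 227 and missed the threshold (0.39, SE 0.14, edgeR adjusted p 0.0518). It passed with DESeq2 (0.37), with total-count scaling (0.4), with the stricter count filter (0.39), without day 3 sample 1 (0.47) or day 6 sample 1 (0.45), and without both samples numbered 1 (0.56). In the other settings it did not pass, and with 1 induced sample left out its log2 fold change went as low as 0.25. G0S2 missed the threshold in the other direction (-0.61, SE 0.22, edgeR adjusted p 0.0547), with overlapping days. It passed with DESeq2, upper-quartile scaling or no count filter, and without day 3 sample 2 or day 6 sample 1. Of 16 fatty acid synthesis genes, 3 were higher and 4 lower, and the higher count was 0 without day 3 sample 3 or day 6 sample 3. The lower count was 1 without day 3 sample 3 and 2 without BEFs sample 1 or 2, day 3 sample 2 or day 6 sample 3. ME1, malic enzyme, which supplies NADPH for the synthesis, was at 11.4, 13.6 and 12.9 and then at 8.73, 7.02 and 6.15 (-0.81, SE 0.13).

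Genes of fatty acid oxidation were lower more often than higher. Of 20 tested, 6 were lower and 1 higher (median -0.3), with 10 lower without day 3 sample 1 and 12 without both samples numbered 1. CPT2, the inner carnitine palmitoyltransferase, was at 154, 194 and 156 FPKM on day 3 and at 114, 71.3 and 70.3 on day 6 (-1.0, SE 0.17). HADHA, the trifunctional protein subunit, was at 73.1, 75.8 and 79.8 and then at 60.4, 47.7 and 43.2 (-0.62, SE 0.12), and DECR1, an auxiliary enzyme for unsaturated fatty acids, was at 5.91, 4.88 and 5.76 and then at 2.96, 2.62 and 1.91 (-1.16, SE 0.18). PPARA, the transcription factor of the process, was higher at 6.93, 9.01 and 7.02 after 5.23, 4.51 and 4.24 (0.76, SE 0.11).

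The table's pathways of mitochondrial breakdown showed the same direction. In fatty acid degradation, 0 of 33 genes were higher and 11 lower (33.3%), with 7 lower without day 3 sample 2 or 3 and 18 without day 6 sample 1. In the degradation of valine, leucine and isoleucine, 18 of 45 were lower (40.0%) and 2 higher, with 11 lower without day 3 sample 3, and in propanoate metabolism 12 of 30 were lower and 0 higher. The last 2 had the highest shares of lower genes among the 300 pathways, and they share enzymes. HSD17B10 was at 24.8, 28.2 and 29.5 FPKM and then at 18.97, 12.93 and 12.97 (-0.9, SE 0.15), PCCA, a subunit of propionyl-CoA carboxylase, was at 5.36, 7.12 and 7.11 and then at 4.29, 3.39 and 2.94 (-0.9, SE 0.16), and MMUT, methylmalonyl-CoA mutase, was at 18.4, 20.2 and 20.6 and then at 11.5, 13.7 and 13.2 (-0.65, SE 0.1). These 3 genes were picked by adjusted p after their values were seen.

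Of 23 cholesterol synthesis genes, 8 were lower and 1 higher (median -0.3, and -0.06 without both samples numbered 1). The higher one was INSIG1, a brake on the synthesis, whose call was lost without day 3 sample 2 or 3 or day 6 sample 2 or 3. FDFT1, squalene synthase, was at 37.8, 39.6 and 33.4 FPKM and then at 20.7, 25.4 and 24.7 (-0.69, SE 0.1), and IDI1, which isomerizes isopentenyl diphosphate, was at 18.9, 19.2 and 16.6 and then at 9.0, 9.95 and 12.04 (-0.84, SE 0.16). In the GO process of cholesterol metabolism, 12 of 27 genes were lower and 2 higher, with 9 to 12 lower without any single induced sample. In the smaller GO process of cholesterol biosynthesis, 2 of 8 genes were higher and 0 lower (median 0.12). Of 24 hypoxia and glycolysis genes, 7 were higher and 6 lower. The higher ones included the glucose transporter SLC2A3, at 26.4, 18.4 and 19.9 and then 43.2, 83.2 and 73.5 (1.61, SE 0.2), the hexokinase HK2 (1.01, SE 0.13) and the enolase ENO2 (1.53, SE 0.17), while the glycolytic enzymes PFKP, PFKL, ALDOA, GAPDH, PGK1 and ENO1 were lower. Only 3 genes of the list were lower without day 3 sample 3.

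Of 23 genes of oxidative stress and glutathione, 2 were higher and 6 lower. HMOX1, heme oxygenase, was at 12.05, 16.2 and 21.3 FPKM and then at 92.1, 42.9 and 45.5 (1.84, SE 0.28), and without both samples numbered 1 the log2 fold change was 1.16. SOD1, cytosolic superoxide dismutase, was at 138, 124 and 119 and then at 206, 193 and 202 (0.64, SE 0.09), while the antioxidant enzymes CAT (-0.75, SE 0.12) and MGST1 (-0.84, SE 0.15) were lower. Of 28 nuclear genes of the respiratory chain, 3 were higher and 2 lower, and the lower count was 13 without day 6 sample 1 and 9 without day 3 sample 1. The higher count was 0 without day 3 sample 3 or day 6 sample 3, and 1 without sample 2 of either day. Of 23 lysosome and autophagy genes, 6 were higher and 2 lower, with 2 higher without day 3 sample 3 or day 6 sample 3 and 4 lower without day 6 sample 1. Of 17 acute phase and complement genes, 2 were higher and 2 lower, with 6 lower without day 6 sample 1, and C3, the central complement component, was at 488, 623 and 878 and then at 565, 242 and 269. Its call as lower (-0.91, SE 0.29) was lost without day 3 sample 2 or 3 or day 6 sample 2 or 3.

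Markers of other cell types were in part absent and in part present. MYOD1 and MYOG of muscle, PTPRC of blood cells and EMCN of endothelium were listed at 0 in all 6 induced samples. The summed level of the tested members was between 1.21 and 2.24 FPKM for muscle, 44.9 and 62.0 for neuronal and glial genes, 58.5 and 79.1 for epithelial genes, and 64.0 and 92.4 for endothelial and blood genes. The ranges of the days overlapped in each of these 4 lists. The endothelial and blood sum had been between 2.87 and 4.44 in BEFs, and on day 3 it was largely made of VWF of endothelium, at 34.8, 50.4 and 38.5, and CD14 of monocytes, at 24.1, 24.1 and 23.6. On day 6 VWF was at 35.9, 21.8 and 25.8 and CD14 at 41.8, 35.8 and 36.9. By edgeR, each of the 4 lists had 1 member higher, and all but muscle had 1 lower. Of these calls, those of NEFH and DCX of neurons, KRT5 of keratinocytes and VWF of endothelium were each lost without day 6 sample 3, and those of CD163, MYH3 and CDH1 held without any single induced sample.

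Single markers did change. CD163, a scavenger receptor of macrophages, was at 1.09, 1.41 and 1.26 FPKM on day 3 and at 5.41, 4.68 and 4.47 on day 6 (1.92, SE 0.27). Of bone and cartilage genes, 2 of 11 were higher and 2 lower. RUNX2, the transcription factor of bone formation, was at 7.36, 6.86 and 6.49 and then at 12.2, 20.7 and 20.5 (1.38, SE 0.18), with ALPL higher as well and MGP and COL11A1 (-0.52, SE 0.11) lower. The bone genes BGLAP, SP7 and IBSP did not exceed 0.37 on either day.

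In the GO process of fibroblast growth factor receptor signaling, 9 of 15 genes were higher and 0 lower (60.0%). This was the second highest share of higher genes among 609 processes with 15 to 300 genes tested. The higher count was 6 without day 3 sample 2, day 3 sample 3 or day 6 sample 3, and 7 without day 6 sample 2. The higher genes included SPRY1, a feedback inhibitor of the receptors, at 7.29, 4.31 and 5.49 FPKM and then 12.4, 14.8 and 14.4 (1.3, SE 0.17), and PDGFB, at 4.2, 4.96 and 4.07 and then 7.6, 9.92 and 10.4 (1.09, SE 0.18). The highest share was in ventricular septum development, 11 of 18 (61.1%), a process that holds broad developmental regulators such as HES1 and NOTCH1. The Ribosome pathway had 39 of 140 genes higher and 3 lower (median 0.24), and its higher count was 11 without day 3 sample 2 and 5 without day 6 sample 3.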

How the data were processed

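RNA of 9 samples was sequenced after enrichment of mRNA with oligo(dT) beads: 3 of untreated BEFs, 3 of day 3 and 3 of day 6. The authors deposited one table with estimated counts per gene (expected counts, not normalized) and FPKM values, which the authors scaled to gene length and depth. The submitters' processing notes list RSEM, StringTie 1.3.1, HISAT2 2.2.4 and fastp 0.18.0, while the methods of the study name other programs for alignment and counting, and the genome build was not given in the sources used here. The table's day 0 columns are named AnEFs and were assigned to BEFs through the sample descriptions. It also holds Pathway (KEGG) and GO annotation.

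After rounding of the expected counts to integers, low genes were removed with edgeR's filterByExpr (10 counts, 15 in total). The counts were scaled by TMM and tested with edgeR 4.0.16 (quasi-likelihood, all 9 samples in 1 fit, Benjamini-Hochberg adjustment, R 4.3.3). A gene counted as called with an adjusted p below 0.05 together with a log2 fold change of at least 1 in size, and members of lists and terms at an adjusted p under 0.05 alone. Each SE was derived from the log2 fold change and its F statistic, as the size of the former over the root of the latter. FPKM served for levels, with log2(FPKM + 1) in the plot of the largest changes. Totals of 18509244 to 23656351 counts per induced sample set the precision of low genes. In simulated counts for this comparison, with 13728 genes tested, 84% of planted 2-fold and 98% of planted 4-fold changes were recovered at an adjusted p under 0.05. Of these calls, 6.7% were false. The simulated samples were drawn independently, without the displacement of the samples numbered 1, so these rates need not hold for the real samples.

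Gene names were matched to RefSeq's gene table (ARS-UCD2.0) by NCBI Gene ID, for 20582 of 21039 IDs, and 706 of 709 entries of 32 gene lists were found. Named genes were the 12 highest and 12 lowest fold changes among called genes that reached 10 CPM on the day of higher level, the 5 largest gains and losses in FPKM, up to 4 members of each list with the lowest adjusted p, defining markers, and 12 adipocyte genes of the study. Other genes named were chosen after their values were seen. The members and lists were chosen with earlier results of these data known. Alternatives were DESeq2 1.42.0, limma 3.58.1 on log2 FPKM, other scalings and filters, the replicate number as a block, and leaving out samples. The values of a few single genes are not reported here.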

Additional observations from a re-analysis of the deposited data

How the results depend on the processing

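The count of genes with at least a 2-fold change depended on the processing, while the direction of named genes mostly did not. Against 574 higher and 451 lower genes, a filter of at least 10 counts in every sample, which tests fewer genes, gave 320 and 299, and a test against the fold threshold itself (glmTreat) gave 80 and 12. With limma on log2(FPKM + 0.1) there were 377 and 298, on log2(FPKM + 1) 224 and 97, and with no filter 215 and 94, and the share of higher genes was 69.8% with log2(FPKM + 1) against 56.0% in the reported counts. The pseudocount understates the change of low genes. Without both samples numbered 1 there were 887 and 1080, and by adjusted p alone 3224 and 3690 in place of 2019 and 1904. A fit of the 6 induced samples alone called 1358 genes higher and 1185 lower by adjusted p, fewer than the reported fit in both directions. The SE and adjusted p of the reported fit thus rest in part on the spread of the BEFs samples. With 1 sample left out, the counts ranged from 408 to 715 higher and from 293 to 832 lower, and by adjusted p alone from 1006 to 2439 higher and from 1079 to 2938 lower; the cause was not tested. DESeq2 and the other scalings stayed within 1.5 times of the reported counts, and scalings moved the median of all genes by at most 0.0555 in size.

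The log2 fold change of PLIN1, -0.04, turned to 0.0 with limma on log2(FPKM + 0.1) and 0.16 without both samples numbered 1, and ranged from -0.19 to 0.13 with 1 sample left out. That of the muscle gene MYF5, -0.18, ranged from -0.32 to 0.03. Neither passed the test. Of the values of single genes under the alternatives, 3903 kept direction and side of the threshold, 158 lost the call, 49 gained it and 4 changed sign. Genes at a few counts are limited by depth.

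With the replicate number as a replicate block, 513 genes were higher and 394 lower, and 1617 and 1493 by adjusted p alone. The labels share replicate numbers between days, but deviations from the group means correlated at -0.372, -0.207 and -0.131 for samples numbered 1, 2 and 3, so the numbers were not taken to pair the samples.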

Other observations

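The gene groups in this section were picked after the values were seen. Genes of a picked set from Notch signalling, a contact-dependent system, were higher in large part on day 6, while the table's own Notch pathway was split. Of 18 Notch receptors, ligands, glycosyltransferases and targets of the HES and HEY families tested, 10 were higher and 2 lower (median log2 fold change 0.99), against 14.4% and 13.6% of all genes tested (median 0.006). Without both samples numbered 1 the counts were 12 and 3, and without any single induced sample 9 to 11 were higher. The set includes HES4, named above for its fold change. Its summed level overlapped between days, at 427, 558 and 530 FPKM on day 3 and at 550, 445 and 485 on day 6. HES1, the main target gene, was at 17.3, 14.3 and 35.7 FPKM on day 3 and at 116, 79.8 and 75.7 on day 6 (1.99, SE 0.4). HEY1 was at 0.95, 1.11 and 1.98 and then at 10.0, 5.75 and 7.12 (2.46, SE 0.3), and the ligand JAG1 was at 33.9, 29.3 and 24.1 and then at 58.6, 62.2 and 70.3 (1.12, SE 0.13). The days did not overlap in these genes. The receptors were split: NOTCH1 (0.83, SE 0.14) and NOTCH3 (1.04, SE 0.16) were higher and NOTCH2, the most abundant of the 3, was lower, at 299, 444 and 398 and then 260, 193 and 223 (-0.77, SE 0.16). In the table's own Notch signaling pathway, which holds other components, 7 of 43 genes were higher and 7 lower (median -0.05). Without day 3 sample 1, 13 were lower, and without both samples numbered 1 the counts were 11 and 16.

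The replication-dependent histone genes that could be tested were higher in large part. The table holds 59, of which 24 had enough counts to be tested. Of these, 15 were higher and 0 lower (median 1.43), and 13 to 15 were higher without any single induced sample. The count filter keeps a gene with enough counts in a single group. A gene low in BEFs and on day 3 could thus be tested through day 6 alone, and the share and the median may lean toward higher for that reason. The summed level of the tested genes was 60.5, 47.7 and 68.8 FPKM on day 3 and 162, 188 and 181 on day 6, after 76.0, 74.9 and 81.9 in BEFs. H2AC6 was at 1.08, 0.57 and 1.73 and then at 9.07, 13.7 and 14.6 (3.41, SE 0.4), and H2BC21 was at 20.4, 13.8 and 17.03 and then at 39.2, 48.6 and 43.9 (1.35, SE 0.13). Reads can be split between the near-identical members of this family, so the sum is firmer than any one gene. The study enriched mRNA with oligo(dT) beads, so these values cover histone transcripts that carry a poly(A) tail. Total histone mRNA was not measured.

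The 12 mitochondrially encoded genes tested were all lower on day 6, with log2 fold changes from -1.04 to -0.59, and 11 or 12 were lower without any single induced sample. Their summed level was 27800, 20900 and 23400 FPKM on day 3 and 14500, 16900 and 12600 on day 6, which is near the 14400, 14600 and 13000 of BEFs. The nuclear genes of the respiratory chain had a median of -0.17.

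Of 83 cytosolic ribosomal protein genes, 33 were higher and 1 lower (median 0.3), a count that was 3 without day 6 sample 3, 9 without day 3 sample 2, 19 and 20 without day 6 sample 2 and day 3 sample 3, and 60 without both samples numbered 1. Of 42 heat shock and co-chaperone genes, HSPA6 included, 10 were higher and 6 lower, with DNAJB1 (0.8, SE 0.13) and DNAJB4 (0.95, SE 0.19) among the higher ones, and the median of the family was 0.09. The higher count was 6 without day 3 sample 3 or day 6 sample 3, and the lower count was 3 without day 6 sample 3. Of the 52 genes called higher with a log2 fold change of at least 3, 51 had a mean under 1 FPKM on day 3 and 3 reached 5 FPKM on day 6.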
